A study of Homo sapiens with 4 samples.

Results

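The vacuolar H+-ATPase (V-ATPase) and the lysosomal machinery that recruits the kinase complex mTORC1 were followed across 4 RNA-seq libraries of the human line MDA-MB-231, an established line derived from triple-negative breast cancer. Members were taken by gene symbol: every row whose symbol begins with ATP6V or ATP6AP, and the named genes of Ragulator, the Rag GTPases, mTORC1, RHEB, the TSC complex, the folliculin complex and GATOR1. The table held 49 such rows among 20804 genes, 29 of the V-ATPase and 20 of the mTORC1 branch. The KO group was 2 libraries of MDA-MB-231 cells labelled as knockout for the microRNA miR-3662, and the WT group was 2 libraries of MDA-MB-231 cells labelled WT. Both groups had the same cell type label and the same RNA preparation, and no treatment was given for either. The series' own text speaks of CRISPR interference and activation and of cells sorted by miR-3662 activity, whereas the sample labels state a KO genotype. No label said how the KO cells were made, whether they came from 1 clone, or whether the 2 libraries of a group came from separate cultures. The p-values below therefore measure the spread between these libraries, which may be technical.

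The V-ATPase is a rotary proton pump that acidifies lysosomes and other organelles. Its V1 sector stands in the cytosol and hydrolyses ATP, and its V0 sector crosses the membrane and carries the protons. The same pump is part of the amino acid sensing platform of the lysosome: Ragulator, built from the LAMTOR proteins, anchors the Rag GTPases, which bind mTORC1 through RPTOR and bring it to RHEB, its activator. GATOR1 (DEPDC5, NPRL2, NPRL3) switches off RRAGA and RRAGB, folliculin (FLCN) with its partner FNIP1 acts on RRAGC and RRAGD, and the TSC complex switches off RHEB. Many lysosomal genes carry in their promoters a palindromic element, the CLEAR motif, that the transcription factors TFEB and TFE3 bind.

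The microRNA named in the KO label is shown with its seed, bases 2 to 8, in capitals, since its gene is the one the label names. It comes from RefSeq (GRCh38.p14, chr6:134979355-134979378, minus strand). The expression table had 0 rows for its gene, so the knockout could not be checked in these libraries. The lines after it are the seed-matched sites (TCATTTT, in capitals) in the longest 3′ UTR annotated by GENCODE 29 of the 3 members that rose and hold one.
hsa-miR-3662 mature: gAAAAUGAugaguagugacugaug
ATP6V0E1 site: gtttgtaaagtTCATTTTtataagctttt
ATP6V1A site: atgaaaaaaaaTCATTTTatccgtctttt
RRAGD site 1: gttgagaaaaaTCATTTTtcagtggagct
RRAGD site 2: atgtcttcaagTCATTTTgcattgtattt
RRAGD site 3: ttaaccagctcTCATTTTatggaaatgat
A site of these 7 letters on the transcript strand was found in 7 of the 38 tested members with an annotated 3′ UTR (18.4%), namely ATP6V0B, ATP6V0E1, ATP6V1A, ATP6V1D, FLCN, MTOR and RRAGD. Among all tested genes with a 3′ UTR, 3615 of 10874 (33.2%) held one. The members with a site had a median log2 fold change of 0.25 (KO minus WT) and those without one 0.26, against 0.09 and 0.06 over all tested genes. A match of this kind is a description of the letters and not evidence of binding.

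The promoters of the called members that hold the core of the CLEAR motif, CACGTG, are shown because 3 of them belong to the Rag and Ragulator genes described below. Each runs from 250 bases before to 50 bases after the start of the gene, 5′ to 3′ along the gene's strand, from RefSeq (GRCh38.p14), with CACGTG in capitals.
RRAGB, chrX:55717499-55717798, plus strand: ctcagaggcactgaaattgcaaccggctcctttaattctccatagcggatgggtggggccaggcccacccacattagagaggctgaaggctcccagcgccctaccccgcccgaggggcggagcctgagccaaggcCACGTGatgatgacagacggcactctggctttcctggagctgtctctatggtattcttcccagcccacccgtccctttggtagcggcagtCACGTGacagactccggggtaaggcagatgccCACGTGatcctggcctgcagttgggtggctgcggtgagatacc
RRAGC, chr1:38859723-38860022, minus strand: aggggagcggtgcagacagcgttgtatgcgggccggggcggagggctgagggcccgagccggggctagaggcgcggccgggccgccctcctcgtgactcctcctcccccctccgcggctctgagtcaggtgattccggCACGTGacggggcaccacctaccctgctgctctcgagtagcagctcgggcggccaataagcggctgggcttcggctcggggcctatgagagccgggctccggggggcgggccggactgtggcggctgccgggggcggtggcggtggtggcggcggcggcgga
LAMTOR4, chr7:100148668-100148967, plus strand: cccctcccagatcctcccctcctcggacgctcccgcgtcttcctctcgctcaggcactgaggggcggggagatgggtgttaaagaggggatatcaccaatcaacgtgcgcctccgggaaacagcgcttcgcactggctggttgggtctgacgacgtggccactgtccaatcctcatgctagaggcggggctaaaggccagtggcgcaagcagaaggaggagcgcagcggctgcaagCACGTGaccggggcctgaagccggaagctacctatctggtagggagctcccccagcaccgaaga
FNIP1, chr5:131796968-131797267, minus strand: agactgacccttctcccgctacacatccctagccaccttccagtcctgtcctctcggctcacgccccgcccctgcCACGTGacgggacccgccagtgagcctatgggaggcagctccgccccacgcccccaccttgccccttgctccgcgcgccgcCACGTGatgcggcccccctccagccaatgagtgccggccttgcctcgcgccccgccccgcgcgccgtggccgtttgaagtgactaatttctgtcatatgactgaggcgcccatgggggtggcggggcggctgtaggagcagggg
NPRL3, chr16:138624-138923, minus strand: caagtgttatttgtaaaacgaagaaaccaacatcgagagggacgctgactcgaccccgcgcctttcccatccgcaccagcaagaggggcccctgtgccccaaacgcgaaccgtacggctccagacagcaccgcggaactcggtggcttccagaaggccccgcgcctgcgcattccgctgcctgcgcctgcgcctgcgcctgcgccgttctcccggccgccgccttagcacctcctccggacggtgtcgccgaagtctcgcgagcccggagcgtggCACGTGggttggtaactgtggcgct
Of the 49 members, 37 had a promoter in that table, 31 of them among the 40 tested members. CACGTG reads the same on both strands, and it lay in 11 of these 31 promoters (35.5%), against 989 of the 9400 promoters of tested genes (10.5%) and 7.43% of all 27305 promoters. RRAGB had 3 copies, FNIP1 had 2, and RRAGC, LAMTOR4 and NPRL3 had 1 each. Among the promoters of members that rose, 4 of 10 held it (40.0%), and among those of members not called, 6 of 19 did (31.6%). The promoters of the not-called members with a match were those of LAMTOR1, TSC2, ATP6V0B, ATP6V0D1, ATP6V0E2 and ATP6V1G1. The longer form TCACGTG was searched on both strands and always contains a CACGTG. It lay in 10 of the 31 promoters (32.3%), against 6.21% of the promoters of tested genes. A match to either form is again a description of the letters, and binding by TFEB or TFE3 was not tested.

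Each library listed between 11283 and 11723 genes at 1 FPKM or more, FPKM being fragments per kilobase of transcript, scaled to the mapped fragments of the library. ESR1 and CDH1, low in this line, stayed at or below 0.03 FPKM, and ERBB2 had 11.44 and 8.55 FPKM in KO against 8.59 and 10.45 FPKM in WT. The mesenchymal markers VIM, CD44 and AXL together reached 1357 to 1476 FPKM in KO and 1443 to 1615 FPKM in WT. The 7 markers of leukocytes, endothelium and fibroblasts summed to 1.12 to 1.2 FPKM in KO and 1.58 to 2.12 FPKM in WT, with PTPRC and CD3E at 0 in all libraries. COL1A1, the fibroblast collagen and the 1 marker among them that reached the filter for testing, fell (adjusted p = 0.00915), with 0.36 and 0.27 FPKM in KO against 1.11 and 1.45 FPKM in WT, and its part in the results was not tested. Within WT, the difference between replicates 2 and 1 followed transcript GC content across 11402 genes (Spearman's rho 0.601), and within KO it ran the other way (rho -0.372). The KO minus WT difference followed GC content with a rho of -0.166 over these genes and of -0.413 over the 40 members, and genes are not independent replicates. The part of GC content in the results was examined only through the corrected values given below.

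Of the 49 members, 40 reached 1 FPKM in at least 2 libraries and were tested. The other 9 were all V-ATPase rows and are given below. Of the 40, 15 were higher and 2 were lower in KO at an adjusted p under 0.05 (limma on log2 of FPKM + 1, p adjusted over all 11786 tested genes). That is 42.5% called, where 27.0% of all tested genes were called, and 37.5% higher, where 16.2% of all tested genes were higher and 10.8% lower. In 27 members both KO libraries lay above both WT libraries, a pattern of 39.3% of all tested genes, and in 8 members both lay below, a pattern of 28.7%. The median log2 fold change was 0.23 over the members and 0.07 over all tested genes. The V-ATPase rows had 6 higher and 1 lower of 20 tested (35.0% called, median 0.17), and the mTORC1 branch had 9 higher and 1 lower of 20 (10 called, median 0.37).

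**Figure D1:**
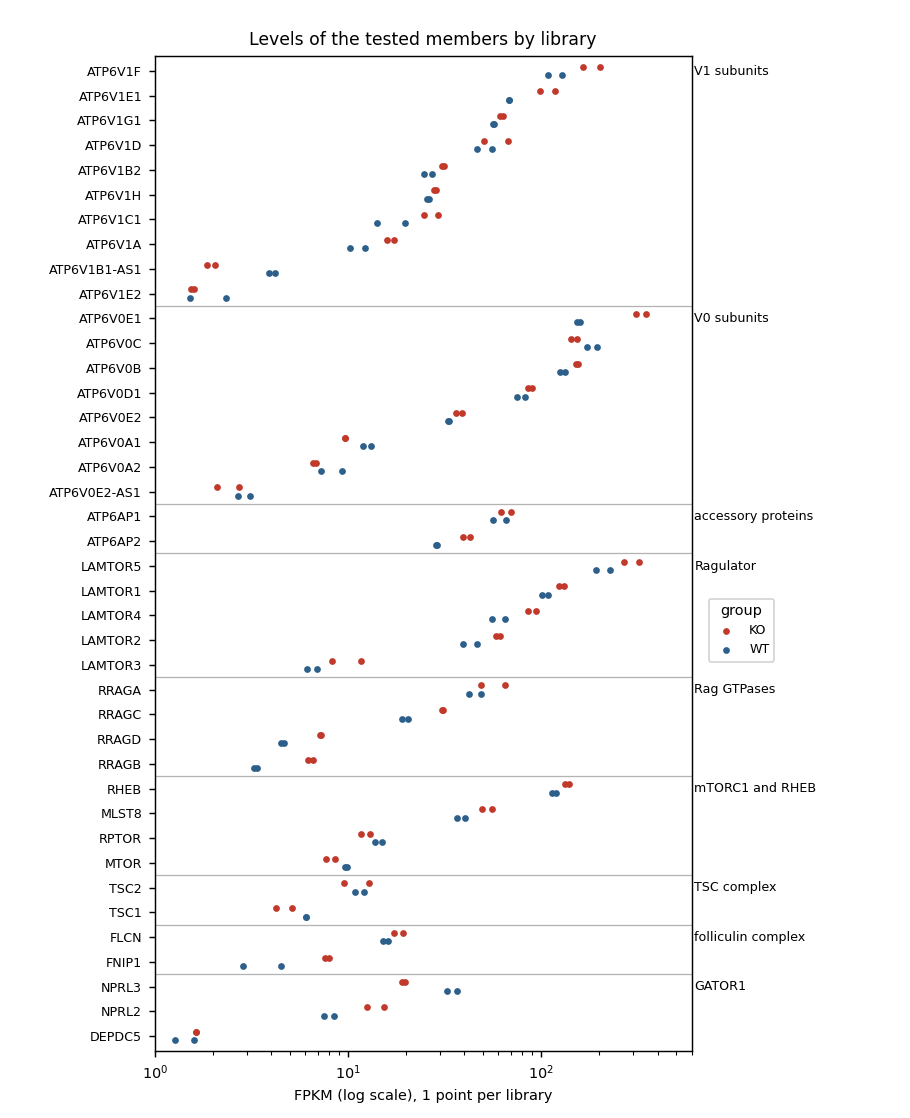
FPKM of each tested member in every library on a log axis, grouped by role, with 1 point per library, KO above WT within a row. All Ragulator and Rag genes had both KO points to the right of both WT points, and NPRL3 had both KO points (18.97 and 19.69) to the left of both WT points (32.45 and 36.64).

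These are bulk libraries, in which a change in the RNA of each cell and a change in the mixture of cells cannot be told apart. The V1 sector was higher in 4 of its 9 tested subunit genes, where 16.2% of all tested genes were higher. ATP6V1E1, the subunit E of the peripheral stalks, had 98.56 and 117.96 FPKM in KO against 68.02 and 68.02 FPKM in WT. Both KO libraries were well above WT, where the libraries were equal to the second decimal (log2 fold change 0.66 ± 0.12 SE, adjusted p = 0.00979). ATP6V1F, the subunit F of the rotor and the most abundant V1 member per length, had 165.23 and 201.19 FPKM in KO against 108.62 and 127.67 FPKM in WT. The groups did not overlap, and the difference was 0.63 ± 0.14 (adjusted p = 0.0156), or 0.40 after the length correction (adjusted p = 0.0206). ATP6V1C1, the subunit C that regulates the joining of V1 and V0, had 24.69 and 29.29 FPKM in KO against 19.71 and 14.14 FPKM in WT. The WT libraries were farther apart than the KO libraries, and the log2 fold change was 0.66 ± 0.18 (adjusted p = 0.0323). ATP6V1A, the catalytic subunit A, had 16.0 and 17.23 FPKM in KO against 12.23 and 10.28 FPKM in WT. It lay close to the threshold at 0.53 ± 0.15 (adjusted p = 0.0334), and it missed it when any 1 library was left out (adjusted p 0.0606 to 0.159) and with another scaling (0.0503). ATP6V1F missed it without KO replicate 2 or WT replicate 1 (0.0705 and 0.0997), ATP6V1E1 without either WT library (0.0562 and 0.0511), and ATP6V1C1 without KO replicate 1, KO replicate 2 or WT replicate 2 (0.0601, 0.159 and 0.162, the last at a log2 fold change of 0.43).

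The 5 other V1 subunit genes tested did not pass. ATP6V1B2, the B subunit of most tissues, and ATP6V1G1, a subunit G of the peripheral stalk, had both KO libraries above WT, with log2 fold changes of 0.26 and 0.13 that did not pass (adjusted p = 0.157 and 0.394). ATP6V1D, the rotor shaft, did not pass either (0.20, adjusted p = 0.397), with 50.85 and 67.40 FPKM in KO against 55.70 and 46.63 FPKM in WT. ATP6V1H and ATP6V1E2 were within 0.2 log2 units of WT. The antisense row ATP6V1B1-AS1 fell: 1.86 and 2.06 FPKM in KO against 3.92 and 4.19 FPKM in WT (-0.77 ± 0.15, adjusted p = 0.00956, and 0.0549 without KO replicate 1). It encodes no subunit, and the gene it overlaps, ATP6V1B1, the B isoform of renal intercalated cells, was listed at no more than 0.10 FPKM in any library. No source used here gives the strand setting of the counting, so reads of an antisense row and its partner may not be separable. Summed over its subunit genes, V1 reached 477.9 and 558.2 FPKM in KO against 376.3 and 376.9 FPKM in WT.

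Of the 7 tested V0 subunit genes with an ATP6V0 symbol, 1 changed, against 16.2% of all tested genes higher and 10.8% lower. That gene had the largest log2 fold change of all members as reported, though FNIP1 exceeded it with a pseudocount of 0.1 FPKM (1.09 against 1.08) and without WT replicate 1 (1.18 against 1.05). ATP6V0E1, the small subunit e of the membrane sector, had 310.19 and 349.42 FPKM in KO against 154.08 and 158.43 FPKM in WT. Its mean was 330 ± 27.7 FPKM in KO and 156 ± 3.08 FPKM in WT (SD, n = 2 each), a ratio of 2.11. The log2 fold change was 1.07 ± 0.11 SE (adjusted p = 0.00151), and it passed under all 13 alternatives run (adjusted p 4.57e-05 to 0.0449). The gene lies on chromosome 5 (GRCh38.p14, 172983771 to 173035445), and its seed-matched site is printed above. Its paralog ATP6V0E2 had 38.93 and 36.09 FPKM in KO against 33.25 and 32.99 FPKM in WT and did not pass (0.17, adjusted p = 0.306). The ratio of ATP6V0E1 to ATP6V0E2 was 7.97 and 9.68 in KO against 4.63 and 4.80 in WT.

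None of the other V0 rows passed. ATP6V0C, the proteolipid c that forms most of the ring, had 153.19 and 143.28 FPKM in KO against 171.86 and 194.43 FPKM in WT. Both KO libraries were lower, at -0.30 ± 0.11 (adjusted p = 0.0841); with scaling by the median of ratios the value was -0.37 and passed (adjusted p = 0.0461). It also passed after the correction for transcript length, at -0.46 (adjusted p = 0.0156), and for GC content, at -0.31 (0.0337). ATP6V0C has processed copies elsewhere in the genome, of which the row ATP6V0CP3 was listed at 0, so its level is uncertain to the extent that reads were shared. ATP6V0B, the proteolipid c″, had 151.48 and 155.54 FPKM in KO against 125.16 and 132.79 FPKM in WT (0.25, adjusted p = 0.112). ATP6V0A1, the subunit a1, had 9.70 and 9.67 FPKM in KO against 12.03 and 13.15 FPKM in WT (-0.35, adjusted p = 0.0990, passing only under a GC correction at 0.0491). ATP6V0D1, ATP6V0A2 and ATP6V0E2-AS1 did not pass either, with log2 fold changes between -0.26 and 0.16. The V0 subunit genes with an ATP6V0 symbol together reached 760.4 and 787.3 FPKM in KO against 581.1 and 621.5 FPKM in WT, ATP6V0E1 included. Of these sums, ATP6V0E1 alone gave 310.19 and 349.42 FPKM in KO against 154.08 and 158.43 FPKM in WT. Both the V0 sum and its ratio to the V1 sum therefore depend on that gene, and neither was computed without it. With ATP6V0E1 included, the ratio of the V1 sum to the V0 sum overlapped between groups, at 0.629 and 0.709 in KO against 0.648 and 0.606 in WT. That overlap says nothing of the ratio without ATP6V0E1.

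A pair of pump subunits carry symbols outside the prefixes and were added after their values were seen. TCIRG1, the subunit a3 of lysosomes and osteoclasts, had 29.35 and 33.52 FPKM in KO against 13.31 and 15.76 FPKM in WT (1.06 ± 0.14, adjusted p = 0.00352). TCIRG1 made up 63.7% and 66.4% of the summed FPKM of the subunit a genes in KO, against 37.8% and 43.2% in WT. That sum included ATP6V0A4, which was too low to be tested. In the same sum ATP6V0A1 held 21.0% and 19.1% in KO against 34.2% and 36.1% in WT, and ATP6V0A2 held 14.3% and 13.5% in KO against 26.6% and 19.8% in WT. RNASEK, a small membrane protein found in the mammalian pump, had 359.64 and 387.93 FPKM in KO against 187.15 and 228.07 FPKM in WT (0.85 ± 0.12, adjusted p = 0.00441). With 2 libraries a group, the smallest p that an exact permutation test of such a share or ratio can give is 0.333, so these ratios are descriptions.

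The accessory protein ATP6AP2, the prorenin receptor, which takes part in assembling V0, had 42.92 and 39.61 FPKM in KO against 28.39 and 28.91 FPKM in WT. Both KO libraries were higher, by 0.51 ± 0.12 on the log2 scale (adjusted p = 0.0195). The call was lost without KO replicate 1, WT replicate 1 or WT replicate 2 (adjusted p 0.0750, 0.0955 and 0.0824) and after a correction for GC content (0.0647). ATP6AP1, the accessory protein Ac45, had 69.45 and 61.57 FPKM in KO against 56.20 and 66.06 FPKM in WT. Its groups overlapped, and it did not pass (0.10 ± 0.13, adjusted p = 0.593).

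Low isoforms of the pump remained low in both groups. ATP6V0D2, an isoform of osteoclasts and kidney, was listed at 0.05 and 0.44 FPKM in KO against 0.02 and 0.03 FPKM in WT. The kidney isoform ATP6V0A4 had 0.44 and 0.52 FPKM in KO against 0.48 and 0.31 FPKM in WT, and ATP6V1C2 had 0.41 and 0.27 FPKM in KO against 0.33 and 0.21 FPKM in WT. ATP6AP1L and ATP6V1G2 lay below 1 FPKM in all 4 libraries. ATP6V1G3, the pseudogene ATP6V0CP3 and the readthrough row ATP6V1G2-DDX39B were listed at 0 throughout.

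**Figure D2:**
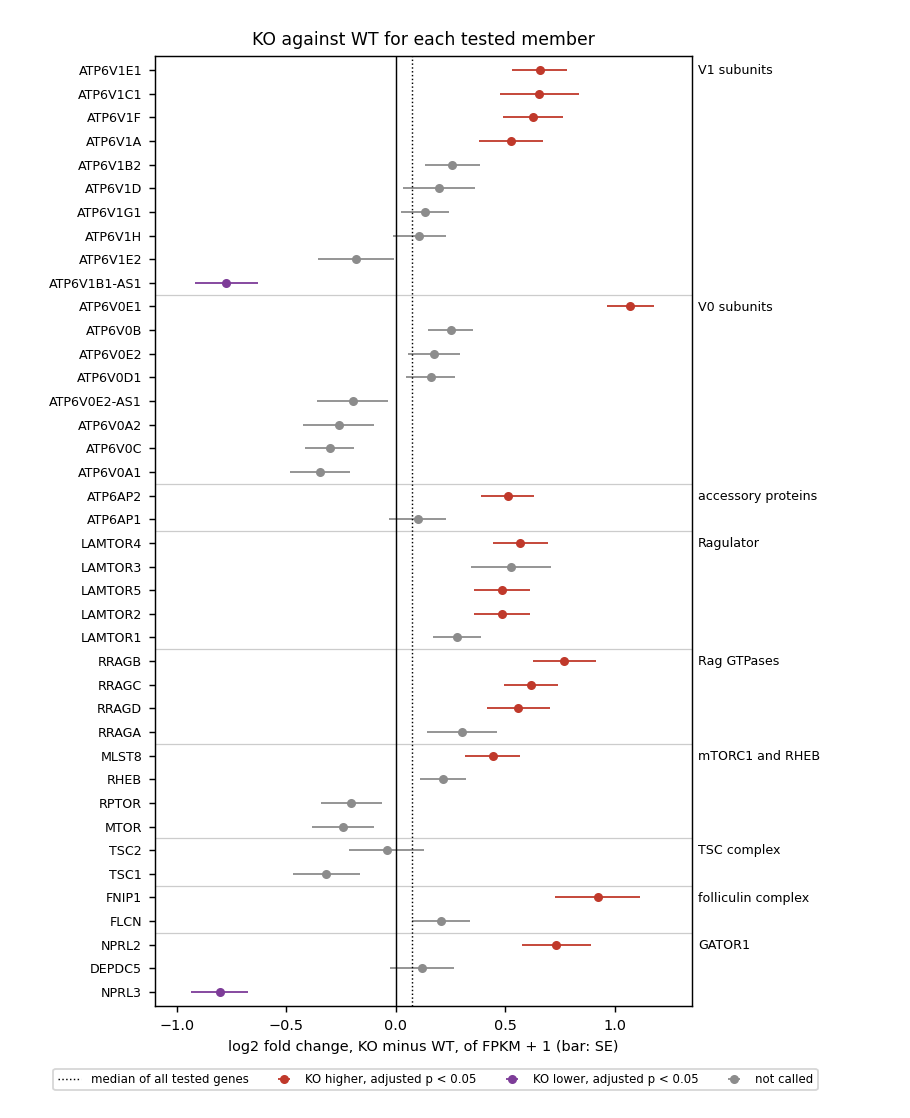
Log2 fold change (KO minus WT, of FPKM + 1) of each tested member with its SE, grouped by role and coloured by call; the dotted line is the median of all tested genes (0.07). ATP6V0E1 (1.07) stands apart among the V0 rows shown, which leave out the subunit a3 gene TCIRG1 (1.06) because of its symbol. All Ragulator and Rag genes lie to the right of that median, and NPRL2 (0.73) and NPRL3 (-0.80) lie on opposite sides.

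Ragulator was higher in 3 of its 5 genes, and all 5 had both KO libraries above both WT libraries (16.2% and 39.3% of all tested genes). LAMTOR5, the most abundant of the 5 per length, had 268.61 and 319.03 FPKM in KO against 193.14 and 225.95 FPKM in WT. The difference was 0.48 ± 0.13 (adjusted p = 0.0301), and it was lost without KO replicate 2, WT replicate 1 or WT replicate 2 (adjusted p 0.125, 0.180 and 0.0576). LAMTOR4, which pairs with LAMTOR5 in the complex, had 85.69 and 93.51 FPKM in KO against 55.49 and 64.90 FPKM in WT. The KO libraries were higher by 0.57 ± 0.13 (adjusted p = 0.0159), and the call was lost without KO replicate 2 or WT replicate 1 (0.0713 and 0.106). The length correction reduced it to 0.35 (adjusted p = 0.0360). LAMTOR2, which pairs with LAMTOR3, had 58.59 and 61.52 FPKM in KO against 39.17 and 46.41 FPKM in WT. Its log2 fold change of 0.48 ± 0.13 (adjusted p = 0.0292) missed the threshold when any 1 library was left out (0.0515 to 0.176) and after a correction for transcript length (0.25, adjusted p = 0.122). LAMTOR3 lay just outside the threshold (0.53, adjusted p = 0.0682), with 8.28 and 11.66 FPKM in KO against 6.90 and 6.17 FPKM in WT. LAMTOR1, the lipid-anchored subunit that holds the complex on the lysosome, had 131.48 and 122.96 FPKM in KO against 100.47 and 108.78 FPKM in WT (0.28, adjusted p = 0.0957). The summed FPKM of the 5 genes was 552.6 and 608.7 in KO against 395.2 and 452.2 in WT.

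The Rag GTPases were higher in 3 of 4 genes (16.2% of all tested genes), and the 3 were the less abundant ones. RRAGB had 6.56 and 6.19 FPKM in KO against 3.38 and 3.27 FPKM in WT. The KO mean was 1.92 times the WT mean (log2 fold change 0.77 ± 0.14, adjusted p = 0.00945, and 0.0528 without KO replicate 1). RRAGC had 30.56 and 31.09 FPKM in KO against 19.15 and 20.33 FPKM in WT. The libraries of each group lay close together and apart from the other group, with a difference of 0.62 ± 0.12 (adjusted p = 0.0116, and 0.0525 and 0.0677 without KO replicate 2 and WT replicate 1). RRAGD had 7.26 and 7.17 FPKM in KO against 4.67 and 4.48 FPKM in WT. Its difference was 0.56 ± 0.14 (adjusted p = 0.0254), and it missed the threshold when any 1 library was left out (0.0771 to 0.111). RRAGA, the most abundant Rag per length and a close paralog of RRAGB, had 48.62 and 65.10 FPKM in KO against 42.51 and 48.56 FPKM in WT. Its KO replicate 1 was only just above WT replicate 2, and it did not pass (0.30 ± 0.16, adjusted p = 0.193). None of the 9 Ragulator and Rag genes changed sign under any of the 13 alternatives.

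RRAGA and RRAGB are alternative partners in the Rag heterodimer, as are RRAGC and RRAGD. The ratio of RRAGA to RRAGB was 7.41 and 10.5 in KO against 12.6 and 14.9 in WT, lower in both KO libraries. The ratio of RRAGC to RRAGD was 4.21 and 4.34 in KO against 4.10 and 4.54 in WT, where the groups overlapped. The summed FPKM of the 4 genes was 93.0 and 109.5 in KO against 69.7 and 76.6 in WT.

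Of mTORC1 itself and its activator, 1 of 4 genes passed, near the 27.0% of all tested genes called. MLST8, a subunit that mTORC1 shares with mTORC2, had 49.47 and 55.68 FPKM in KO against 36.45 and 40.42 FPKM in WT. The difference was 0.44 ± 0.13 with the largest adjusted p of the called members (0.0374), and it missed the threshold when any 1 library was left out (0.0543 to 0.189) and with another scaling (0.0604). MTOR, the kinase, had 8.58 and 7.69 FPKM in KO against 9.93 and 9.62 FPKM in WT, and RPTOR, the scaffold that binds the Rags, had 12.97 and 11.67 FPKM in KO against 13.74 and 14.92 FPKM in WT. Both had lower values in both KO libraries without passing (-0.24 and -0.20, adjusted p = 0.239 and 0.303). RHEB, the small GTPase that activates the kinase, had 132.52 and 139.63 FPKM in KO against 114.08 and 119.80 FPKM in WT (0.22, adjusted p = 0.162).

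The TSC complex, the GTPase-activating complex for RHEB, had no gene that passed, where 27.0% of all tested genes were called. TSC2, its catalytic subunit, had 12.88 and 9.55 FPKM in KO against 10.86 and 12.06 FPKM in WT, and the WT values lay between the KO values (-0.04 ± 0.17, adjusted p = 0.878). TSC1 had 5.12 and 4.25 FPKM in KO against 6.10 and 6.03 FPKM in WT (-0.32, adjusted p = 0.157). TSC1 lies on the long arm of chromosome 9 (GRCh38.p14, 132891349 to 132945378). Of the 10 tested genes nearest to it, 5 on each side, 6 were lower and 1 was higher in KO, with a median log2 fold change of -0.59. Over all tested genes, 10.8% were lower and 16.2% were higher.

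Of the folliculin pair, 1 gene passed, where 27.0% of all tested genes were called. FNIP1, the folliculin partner, had 7.95 and 7.57 FPKM in KO against 4.52 and 2.87 FPKM in WT. The KO mean was 2.10 times the WT mean (0.92 ± 0.19, adjusted p = 0.0137), and the call was lost without KO replicate 1, KO replicate 2 or WT replicate 2 (adjusted p 0.0661, 0.0662 and 0.0509). FLCN had 19.21 and 17.32 FPKM in KO against 16.15 and 15.20 FPKM in WT and did not pass (0.21, adjusted p = 0.277).

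Of the 3 GATOR1 genes, NPRL3 fell, NPRL2 rose and DEPDC5 did not pass, where 16.2% of all tested genes were higher and 10.8% lower. NPRL3 had 19.69 and 18.97 FPKM in KO against 32.45 and 36.64 FPKM in WT. Its mean was 19.3 ± 0.509 FPKM in KO and 34.6 ± 2.96 FPKM in WT (SD, n = 2 each), with a log2 fold change of -0.80 ± 0.13 SE (adjusted p = 0.00583) that passed under all 13 alternatives (0.00168 to 0.0489). NPRL2, its binding partner and the catalytic subunit of the complex, had 12.49 and 15.40 FPKM in KO against 7.48 and 8.45 FPKM in WT. The difference was 0.73 ± 0.16 (adjusted p = 0.0148), lost without KO replicate 2 or WT replicate 1 (0.0936 and 0.0733). NPRL3 lies on chromosome 16 (85386 to 138673) and NPRL2 on chromosome 3 (50347330 to 50350775; both GRCh38.p14). The ratio of NPRL3 to NPRL2 was 1.58 and 1.23 in KO against 4.34 and 4.34 in WT. DEPDC5, the subunit that contacts the Rags, had 1.63 and 1.64 FPKM in KO against 1.27 and 1.59 FPKM in WT (0.12, adjusted p = 0.567). Of the 9 tested genes nearest to NPRL3, 3 were lower and 0 were higher in KO. Of the 10 nearest to NPRL2, 0 were lower and 2 were higher. Both counts are to be read against the 16.2% higher and 10.8% lower of all tested genes.

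**Figure D3:**
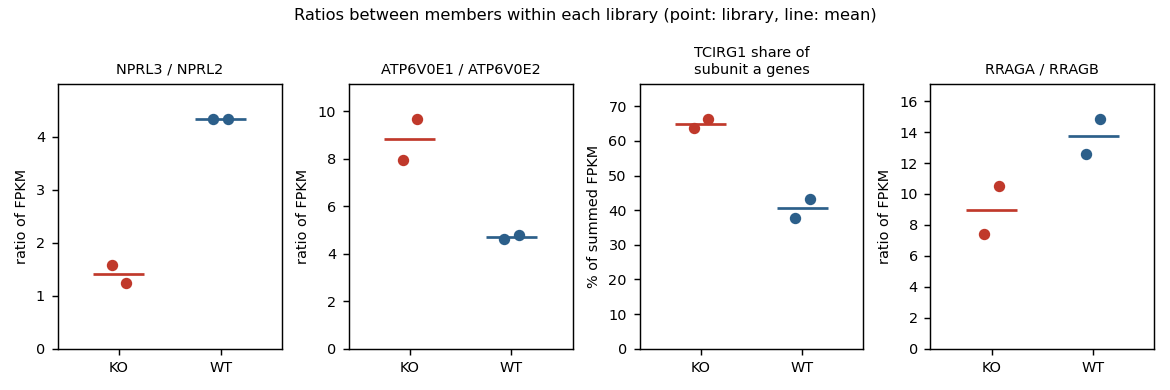
Ratios and shares computed from FPKM within each library, with 1 point per library and a line at the group mean, KO left of WT and each axis starting at 0. NPRL3 over NPRL2 was 1.23 to 1.58 in KO and 4.34 in both WT libraries, ATP6V0E1 over ATP6V0E2 and the TCIRG1 share of the subunit a genes were higher in KO, and RRAGA over RRAGB was lower in KO.

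Further genes of the pathway, in 6 lists, were called in 18 of 58 tested (31.0%), 10 higher and 8 lower, which is near the 27.0% of all tested genes called (16.2% higher and 10.8% lower). The counts of the single lists below are to be read against the same shares. Lysosomal ion channels and transporters had 2 higher and 0 lower of 9. TPCN1, a cation channel of endolysosomes, had 22.93 and 21.22 FPKM in KO against 11.17 and 11.20 FPKM in WT (0.92 ± 0.13, adjusted p = 0.00409), and TMEM175, a potassium and proton channel, was higher by 0.56 (adjusted p = 0.0330). V-ATPase assembly and regulation had 2 higher and 1 lower of 12, with ROGDI, related to a subunit of the yeast RAVE assembly complex, and OXR1, a TLDc-domain protein, higher (0.81 and 0.59, adjusted p = 0.0213 and 0.0383). OXR1 missed the threshold after the GC correction (0.33, adjusted p = 0.0588), with another scaling (0.0517) and with the replicate block (0.0550). TBC1D24, another TLDc-domain protein, was lower (-0.48, adjusted p = 0.0444).

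The mTORC1 substrates had 0 higher and 3 lower of 9, where 10.8% of all tested genes were lower. TFE3, a lysosomal transcription factor that mTORC1 keeps in the cytosol, had 22.39 and 22.61 FPKM in KO against 31.23 and 34.39 FPKM in WT (-0.52, adjusted p = 0.0204). LARP1, a repressor of the translation of ribosomal protein mRNAs, fell by 0.48 on the log2 scale (adjusted p = 0.0239). The remaining one, named after its values were seen, was TFEB, at 1.22 and 1.24 FPKM in KO against 2.07 and 3.72 FPKM in WT (-0.77, adjusted p = 0.0324, and -0.46 without WT replicate 2, adjusted p = 0.116).

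The remaining lists were mixed. The sensors and upstream regulators had 5 higher and 1 lower of 15. GATSL3, the arginine sensor now called CASTOR1, had 3.05 and 3.20 FPKM in KO against 1.17 and 1.71 FPKM in WT (0.77, adjusted p = 0.0141). BMT2, the S-adenosylmethionine sensor SAMTOR, was higher by 0.65 (adjusted p = 0.0186, and 0.40 after the GC correction), and SESN2, a leucine sensor, was lower at -0.49 (adjusted p = 0.0471, and 0.0903 with the replicate block). Other called genes, named after their values were seen, were the sestrin SESN3, higher by 0.75 (adjusted p = 0.0198, and 0.0844 after the GC correction), and DDIT4, an mTORC1 inhibitor induced by stress. DDIT4 had 252.23 and 220.73 FPKM in KO against 54.81 and 132.15 FPKM in WT (1.46 ± 0.34, adjusted p = 0.0189, and 0.83 without WT replicate 1). GATOR2 and KICSTOR, which oppose and anchor GATOR1, had 0 higher and 1 lower of 9, the KICSTOR subunit ITFG2 at -0.57 (adjusted p = 0.0311). The other mTORC1 and mTORC2 subunits had 1 higher and 2 lower of 4. RICTOR, the scaffold of mTORC2, was higher (0.71, adjusted p = 0.0369), at 0.47 without WT replicate 2 (0.159) and 0.44 after the GC correction (0.0378). MAPKAP1, another mTORC2 subunit, and AKT1S1, the mTORC1 inhibitor PRAS40, were lower (-0.61 and -0.36, adjusted p = 0.0140 and 0.0480). AKT1S1 missed the threshold with a pseudocount of 0.1 FPKM (adjusted p = 0.0506), without the trend (0.0750) and with the replicate block (0.0875). It passed with another scaling (0.0274) and after the GC correction (0.0271). Of the 18 called genes of these lists, between 2 and 5 passed when 1 library was left out, and TPCN1 was among them each time (adjusted p 0.0194 to 0.0256). With the replicate block 12 of the 18 passed, and after the GC correction 15 did.

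**Figure D4:**
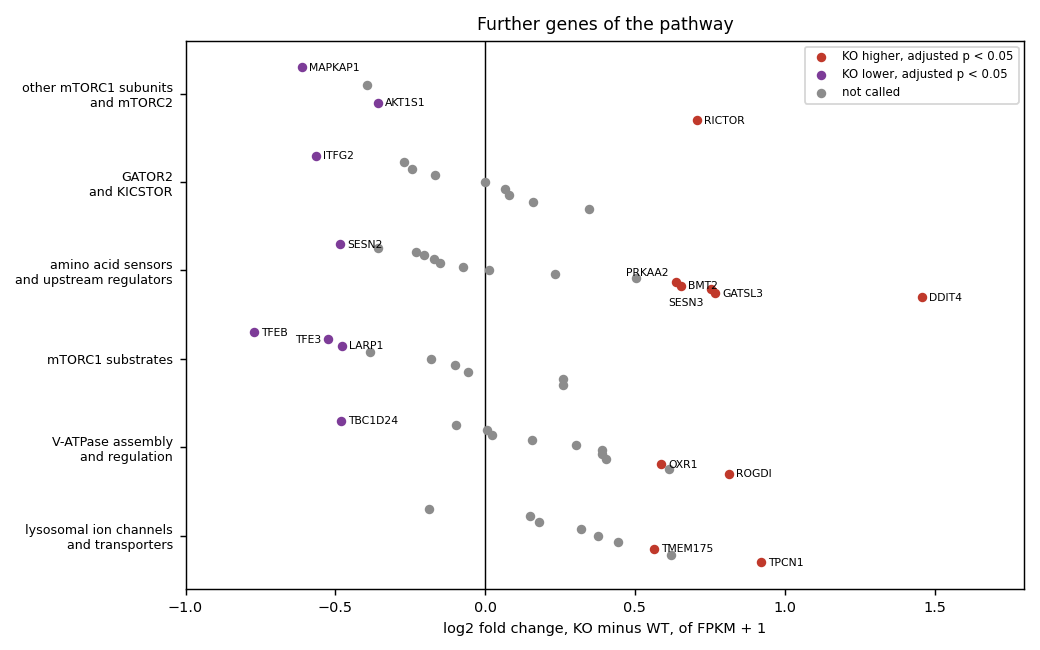
Log2 fold change (KO minus WT, of FPKM + 1) of each tested gene of the 6 further lists, 1 point per gene, coloured by call and with called genes named. The called mTORC1 substrates all lie to the left of 0, and the called lysosomal channels TMEM175 (0.56) and TPCN1 (0.92) lie to the right.

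The 17 called members kept their sign under all 13 alternatives, but the number that passed depended on single libraries. When 1 library was left out, 8 of the 17 passed without KO replicate 1, 6 without KO replicate 2, 6 without WT replicate 1 and 8 without WT replicate 2. The share of all tested genes called was 16.1% without KO replicate 1, 12.3% without KO replicate 2, 11.9% without WT replicate 1 and 14.8% without WT replicate 2. Without any filter on low values, ATP6V0E1 and NPRL3 alone passed among the members, where 2.65% of all genes did. Scaling by the median of ratios gave 13 members higher and 3 lower, while over all tested genes it gave 1557 higher and 1613 lower in place of 1906 and 1278. A correction for transcript GC content gave 15 higher and 4 lower, with LAMTOR1 (higher), ATP6V0C and ATP6V0A1 (both lower) added and ATP6AP2 lost. It reduced the log2 fold changes of FNIP1 (0.92 to 0.72), ATP6V1C1 (0.66 to 0.47), ATP6V1A (0.53 to 0.37) and RRAGD (0.56 to 0.43), which still passed. LAMTOR3, not called before or after it, went from 0.53 to 0.29. Other members hardly moved, such as NPRL2 (0.73), LAMTOR4 (0.57) and NPRL3 (-0.80). A correction for transcript length gave 14 higher and 3 lower, with LAMTOR2 lost and ATP6V0C added.

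**Figure D5:**
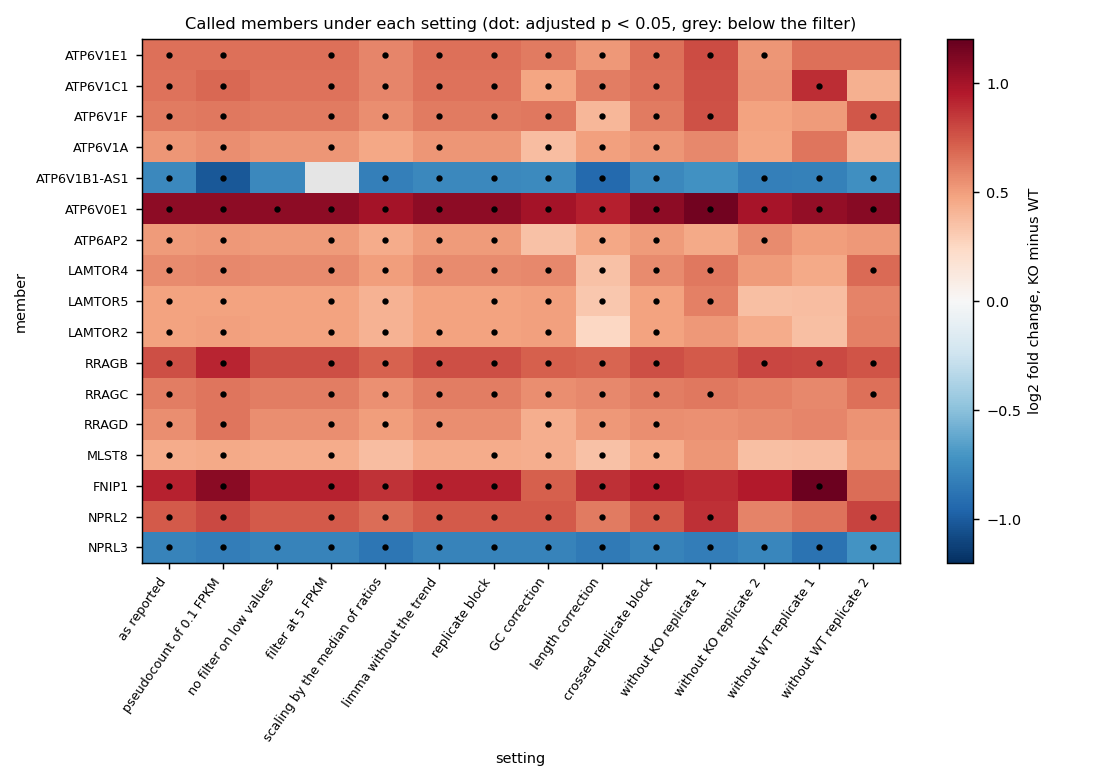
Log2 fold change (KO minus WT) of the 17 called members, rows by role, under the analysis as reported and each of 13 alternatives, with a dot where the adjusted p was under 0.05 and grey where the member fell below the filter. The colours keep their sign along every row, and the rows of ATP6V0E1 and NPRL3 have a dot in every column.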

How the data were processed

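Gene expression was deposited as 1 table of FPKM values that the authors made, with 2 decimals, for 20804 genes in 4 libraries. The submitters' processing notes name HISAT, StringTie, Cufflinks, GATK and hg38, with no roles or versions; no source used here gives the strand setting. FPKM keeps no counts, so depth is unknown, and low values could not be turned back into whole reads. Per the labels, total RNA was extracted with Trizol and prepared with an Illumina TruSeq RNA kit. Groups follow the genotype label.

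Genes at 1 FPKM or more in at least 2 libraries (11786) were tested with limma 3.58.1 in R 4.3.3 on log2 of FPKM with a pseudocount of 1, with a trend and Benjamini-Hochberg adjustment, calls being made at an adjusted p under 0.05. Fold changes on this scale understate low genes. The procedure was tested on simulated data. The 13 alternatives changed the pseudocount, filter, scaling, trend, block or libraries; the GC, length and crossed-block fits were chosen after seeing the data. The members and gene lists were chosen with earlier results of these data known. Values in every library are given for called members and the most abundant member of each role; of the other members, at most 3 a role with the smallest p were to be named, and a few more low or overlapping ones were named after their values were seen. Of the further lists, at most 2 higher and 2 lower genes with the smallest p are named, beside TFEB, SESN3 and DDIT4. Gene identifiers matched RefSeq for all 49 members; 3′ UTRs come from GENCODE 29. Ratios were computed in Python 3.11.15.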

Additional observations from a re-analysis of the deposited data

How the results depend on the processing

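All 17 called members kept their direction under the 13 alternatives, and 2 of them, ATP6V0E1 and NPRL3, passed under each. Of the 23 members not called, 14 stayed so with the same sign, 4 passed somewhere and 5 changed sign somewhere. Without a filter on low values 525 genes passed of 19833 tested (5762 at an unadjusted p under 0.05), with 1 member higher and 1 lower; more genes were tested, and the share of the spread taken from other genes was smaller. Leaving out 1 library gave 1402 to 1902 genes, 4 to 8 members higher and 1 to 2 lower, with fewer samples. A filter at 5 FPKM removed ATP6V1B1-AS1 and left 1 member lower. The GC correction gave 4 members lower; the cause was not tested. The sign changes among members were those of ATP6V1G1 (-0.035 with the length correction) and of 4 members when 1 library was left out: ATP6AP1 (range -0.014 to 0.22), ATP6V1D (-0.0033 to 0.40), ATP6V1E2 (-0.38 to 0.020) and TSC2 (-0.24 to 0.16, and 0.029 without WT replicate 2). Without the trend, LAMTOR5 and MLST8 were lost. With the replicate block, 2864 genes passed, with 13 members higher and 2 lower, and ATP6V1A and RRAGD were lost. That block pairs libraries by their replicate number, and the within-group differences of same-numbered libraries correlated at -0.177 over 11786 genes. Whether any libraries of the groups were paired was not tested. A crossed pairing, chosen after seeing the data, called 4170 genes, with 16 members higher and 2 lower. Depth is unknown, so no limit of detection is given for the low isoforms.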

Other observations

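Some members that did not pass lay among genes that did. Of the 10 tested genes nearest to ATP6V1B2 on chromosome 8, 5 were higher and 0 were lower in KO, with a median log2 fold change of 0.59, while ATP6V1B2 itself was at 0.26. Of the 10 nearest to ATP6AP1 on chromosome X, 4 were higher and 0 were lower, with a median of 0.47, while ATP6AP1 was at 0.10. The called member ATP6V0E1 had 2 higher and 0 lower genes among its 10 nearest, with a median of 0.22, and RRAGB had 4 higher and 1 lower, with a median of 0.31. None of these neighbourhoods was tested as a group, and neighbours were the 5 nearest tested genes on each side. The neighbourhoods named here were picked from those of the 40 tested members. Over all tested genes, 16.2% were higher and 10.8% were lower in KO.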
